A study of Mus musculus with 6 samples.

Results

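The genes described here are those of hormones, secretory granules and regulated exocytosis, selected from the deposited organoid table by the start of the gene name (among them Chg, Pcsk, Cpe, Syt, Sytl, Stx, Vamp, Gcg, Sct, Cck, Nts, Sst, Gip and Pyy). The selection found 12 of the 1420 listed genes, and 9 of its 23 name starts had a match. These are the peptide hormone genes Gcg, Nts, Sct and Pyy, the precursor-processing enzymes Cpe, Pcsk5 and Pcsk6, the synaptotagmin-type genes Sytl1, Sytl2 and Syt8, the hormone receptor Gipr, and Cped1. Cped1 was found only because its name starts with Cpe. It encodes a protein with cadherin-like and PC-esterase domains and is kept here as a member by name alone. For the other 14 name starts, which include Chg, Neurod, Cck, Ghrl, Sst, Stx and Vamp, genes were not analysed here.

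Enteroendocrine cells are scattered hormone-producing cells of the gut epithelium. They make peptide hormones as longer precursors that are cut at basic residues and trimmed inside dense-core granules, and they release them when calcium triggers fusion of the granule with the cell membrane through SNARE proteins and synaptotagmins. Paneth and goblet cells also secrete from stored granules, so that some of the exocytosis genes are shared between these cell types.

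The libraries came from small intestinal organoids, cultured from crypts in Matrigel with EGF, Noggin and R-spondin, of C57BL/6 mice that were either wild type (WT, 3 libraries) or deleted for Smarcad1 (KO, 3 libraries), a chromatin remodelling ATPase. About 600 organoids per condition were collected after 5 days, and poly(A)-selected directional libraries were sequenced. According to the genotype label the KO was made with Vil-Cre, which is active in gut epithelium, whereas the growth protocol and the methods name ZP3-Cre, active in the oocyte, with littermate controls. Which of the 2 drivers was used cannot be told from the labels. Nothing in the labels says which animal each library came from, so p-values measure the spread between these libraries, part of which may be technical.

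Values are RPM, read numbers scaled to the size of each library and not corrected for transcript length. The values of each library were whole multiples of a step taken as 1 read, which gave depths between 1.24e+07 and 1.57e+07 reads, and a floor of 3 reads then lay between 0.192 and 0.242 RPM. The deposited table holds genes that had already passed the study's own test on these 6 libraries, so every call below repeats a selection on the same data and is no separate evidence. Smarcad1 itself had 105, 94.7 and 96.3 RPM in WT and 21.7, 21.3 and 24.03 RPM in KO, with no overlap (log2 change -2.14, SE 0.10, limma adjusted p = 5.59e-05). Of the markers common to all gut epithelium, 1 of 8 was listed (Krt18, a keratin), and the others, Epcam, Cdh1 and Vil1 included, were not analysed here.

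Of the 12 genes, 10 rose and 2 fell in KO, and all 12 passed limma with an adjusted p-value under 0.05, as did 99.9% of the listed genes. The share that rose is to be read against 52.5% of the listed genes called higher and 47.4% called lower. The median log2 change of the 12 genes was 0.90, against 0.38 over the table, and 6 of the 12 changed by at least 1 on the log2 scale, all upward, against 27.1% of the table (19.0% upward). WT and KO values did not overlap in 11 of the 12 genes, against 98.5% of the table, and 7 of the 12 had an adjusted p-value under 0.01, against 59.5%. The genes that rose were the 4 hormones, Cpe, the 3 synaptotagmin-type genes, Gipr and Cped1, and the genes that fell were the convertases Pcsk5 and Pcsk6. In bulk libraries such as these, more cells of a type and more RNA per cell cannot be told apart.

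**Figure D1:**
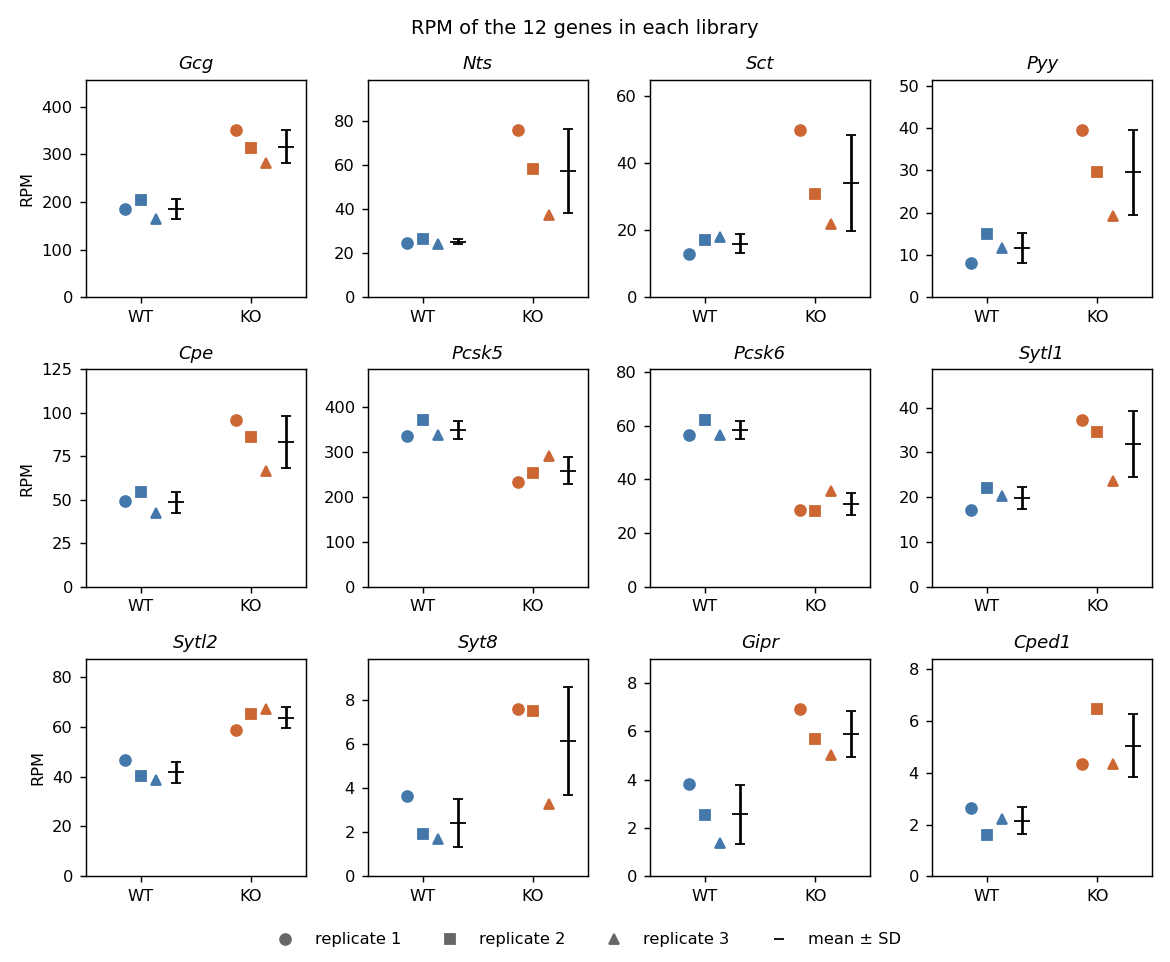
RPM (linear axis from 0, 1 panel per gene) of the 12 genes in the WT and KO libraries, with marker shapes for the replicate number and the mean ± SD beside each group (n = 3). Only Pcsk5 and Pcsk6 are lower in KO, and only for Syt8 do the groups overlap.

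The sequences before the start sites of the hormone genes and of both convertases that fell are shown because these genes moved in opposite directions as groups. Each is the 250 bases upstream of the annotated start (RefSeq, GRCm38.p6), 5′ to 3′ on the gene's own strand, with 1 window per gene. For Nts and Pcsk6 the RefSeq start lies inside the gene as listed in the table, and Pyy has 1 further start. Capitals mark the E-box CANNTG bound by basic helix-loop-helix factors, TATAAA, the GC box GGGCGG and the AP-1 motif TGAGTCA, on either strand.
Gcg, chr2:62483654-62483903, minus strand: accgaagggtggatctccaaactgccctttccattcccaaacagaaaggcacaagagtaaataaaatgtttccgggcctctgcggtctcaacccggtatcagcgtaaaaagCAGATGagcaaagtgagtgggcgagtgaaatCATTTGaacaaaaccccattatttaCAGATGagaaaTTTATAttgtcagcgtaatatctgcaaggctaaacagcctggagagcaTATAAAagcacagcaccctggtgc
Nts, chr10:102490419-102490668, minus strand: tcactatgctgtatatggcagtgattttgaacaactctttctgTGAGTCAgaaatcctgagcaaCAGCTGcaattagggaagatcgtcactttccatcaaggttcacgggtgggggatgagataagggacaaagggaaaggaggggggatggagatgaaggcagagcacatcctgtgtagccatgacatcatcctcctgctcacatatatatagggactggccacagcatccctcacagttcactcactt
Sct, chr7:141279134-141279383, minus strand: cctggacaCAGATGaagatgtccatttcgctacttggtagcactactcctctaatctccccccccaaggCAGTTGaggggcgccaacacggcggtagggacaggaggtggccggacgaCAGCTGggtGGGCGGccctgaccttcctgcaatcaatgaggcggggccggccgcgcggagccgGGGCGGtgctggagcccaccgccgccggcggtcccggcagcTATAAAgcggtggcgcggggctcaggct
Pyy, chr11:102107833-102108082, minus strand: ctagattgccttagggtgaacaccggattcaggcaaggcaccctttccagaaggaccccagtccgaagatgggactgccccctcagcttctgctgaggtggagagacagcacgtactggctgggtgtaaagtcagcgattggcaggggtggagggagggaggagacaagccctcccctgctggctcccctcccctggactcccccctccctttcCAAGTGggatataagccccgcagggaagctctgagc
Pcsk5, chr19:17837633-17837882, minus strand: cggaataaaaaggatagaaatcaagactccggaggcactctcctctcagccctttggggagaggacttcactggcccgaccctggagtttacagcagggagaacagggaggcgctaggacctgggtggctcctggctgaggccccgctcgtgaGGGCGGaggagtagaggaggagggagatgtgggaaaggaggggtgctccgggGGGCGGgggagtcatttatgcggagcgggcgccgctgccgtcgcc
Pcsk6, chr7:65861886-65862135, plus strand: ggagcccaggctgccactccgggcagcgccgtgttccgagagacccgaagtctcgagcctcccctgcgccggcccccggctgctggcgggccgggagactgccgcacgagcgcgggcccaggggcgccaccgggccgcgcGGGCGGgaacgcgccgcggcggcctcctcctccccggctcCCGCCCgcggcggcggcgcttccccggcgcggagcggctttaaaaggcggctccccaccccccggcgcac

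The promoter table used here, taken from RefSeq, was matched to 9 of the 12 genes. The windows of Cpe, Gipr and Sytl2 were not analysed here. With 1 window per gene, an E-box was found in 6 of these 9 genes (the 4 hormone genes, Sytl1 and Cped1) and not in Pcsk5, Pcsk6 and Syt8. Of the 32851 mouse windows of this length 66.2% held one, so the share is near the background. Syt8 has further annotated starts, and the windows before them each held an E-box. Gcg and Sct held 3 E-boxes each, and Nts and Pyy 1 each. TATAAA was found in Gcg and Sct, at 24 and 28 bases before the start respectively with a further copy in Gcg at 72 bases, and in 12.4% of all windows. GGGCGG was found in 4 of the 9 genes, in 2 copies in Pcsk5, Pcsk6 and Sct and in 1 copy in Cped1, and in 32.7% of all windows. TGAGTCA was found in Nts and Syt8, against 4.46% of all windows, but not in the windows before the further starts of Syt8. The E-box CAGCTG, a subset of CANNTG, was present in Nts, Sct and Sytl1 and in 13.0% of all windows. Neither TGACGT (6.47% of all windows) nor TAATNA (24.3%) occurred in the window used for each of the 9 genes. TAATNA did occur in each window before the further starts of Syt8. These matches describe letters only, and binding of any factor was not measured. The window of Pcsk6 was 81.2% G and C and that of Gcg 44.8%, against a median of 52.4% over all windows.

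Gcg, the proglucagon gene from which intestinal cells make the glucagon-like peptides, was the most abundant of the 4 hormones of the selection. It lies on chromosome 2 (62474530 to 62483650, minus strand) and had 186, 205 and 164 RPM in the WT libraries and 352, 314 and 283 RPM in the KO libraries. The lowest KO library was 1.38 times the highest WT library. The mean rose from 185 ± 20.3 to 316 ± 34.3 RPM (SD, n = 3 each), or 0.77 on the log2 scale (SE 0.13, limma adjusted p = 0.00346).

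Nts encodes neurotensin, a peptide that is known to be released from the lower small intestine after fat ingestion. It lies on chromosome 10 (102481756 to 102490486, minus strand) and had 24.9, 26.7 and 24.3 RPM in WT and 76.2, 58.5 and 37.6 RPM in KO. The WT libraries thus lay close together (coefficient of variation 4.98%), the KO libraries far apart (33.6%), and the groups did not overlap. In limma the change came to 1.12 on the log2 scale (SE 0.25, adjusted p = 0.00706).

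Sct, the gene of secretin, which stimulates bicarbonate secretion by the pancreas, lies on chromosome 7 (141278330 to 141279133, minus strand). It had 12.7, 16.9 and 18.01 RPM in WT and 49.8, 30.7 and 21.7 RPM in KO. KO replicate 3 was only 1.20 times the highest WT library, and KO replicate 1 was 2.30 times KO replicate 3. In limma the change came to 1.03 on the log2 scale (SE 0.31, adjusted p = 0.0171), and this p was 0.0525 when WT replicate 1 was left out. The call was also lost once the trend with transcript length was removed (0.42, limma adjusted p-value 0.0668).

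Pyy encodes peptide YY, a hormone known to slow gut transit and reduce appetite. It lies on chromosome 11 (102106676 to 102107832, minus strand) and had 8.01, 15.0 and 11.6 RPM in WT and 39.5, 29.6 and 19.3 RPM in KO. Each KO library was above each WT library, and the spread was wide in both groups. Its log2 change of 1.33 (standard error 0.32, limma adjusted p-value 0.00909) was the highest estimate among the 12 genes in the main fit. With a pseudocount of 1 it was the highest as well (1.26), but not in every alternative. Without WT replicate 1 it had 1.09, below Syt8 (1.61), and without KO replicate 3 it had 1.61, below Syt8 (1.68). The 95% interval of 0.56 to 2.10 covers the estimates of the other hormones. With the length trend removed Pyy had 0.69, below Cped1 (1.46), Gipr (1.31), Syt8 (1.01), Sytl2 (0.79) and Nts (0.77). Without KO replicate 1 it had 1.09, below Cped1 (1.29) and Gipr (1.14).

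Cpe, carboxypeptidase E, removes the basic residues left at the end of hormone peptides after cleavage and lies on chromosome 8 (64592542 to 64693054, minus strand). It had 49.2, 54.4 and 42.2 RPM in WT and 96.2, 86.1 and 66.8 RPM in KO, without overlap. The mean rose 1.71-fold, from 48.6 ± 6.12 to 83.04 ± 15.0 RPM (SD, n = 3 each), or 0.76 on the log2 scale (SE 0.17, limma adjusted p = 0.00729).

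The ratio of each hormone to Cpe within a library, a comparison chosen after the values were seen, is given on the RPM scale without correction for length. With the length trend removed, the log2 changes of Gcg and Cpe were 0.36 and 0.63. Gcg over Cpe was 3.78, 3.77 and 3.90 in WT and 3.66, 3.65 and 4.24 in KO, so that the groups overlapped. Nts over Cpe was 0.506, 0.491 and 0.576 in WT and 0.792, 0.679 and 0.563 in KO, with KO replicate 3 inside the WT range. Sct over Cpe also overlapped between the groups. Pyy over Cpe did not overlap, but only narrowly, with at most 0.276 in WT and at least 0.289 in KO. Relative to Gcg itself, Nts, Sct and Pyy overlapped between the groups in each case, with KO replicate 3 within the WT range. The share of Gcg in the summed RPM of the 4 hormones ran from 75.3% to 80.3% in WT and from 68.0% to 78.3% in KO. The summed RPM itself did not overlap, with 232, 264 and 218 RPM in WT and 517, 433 and 362 RPM in KO.

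**Figure D2:**
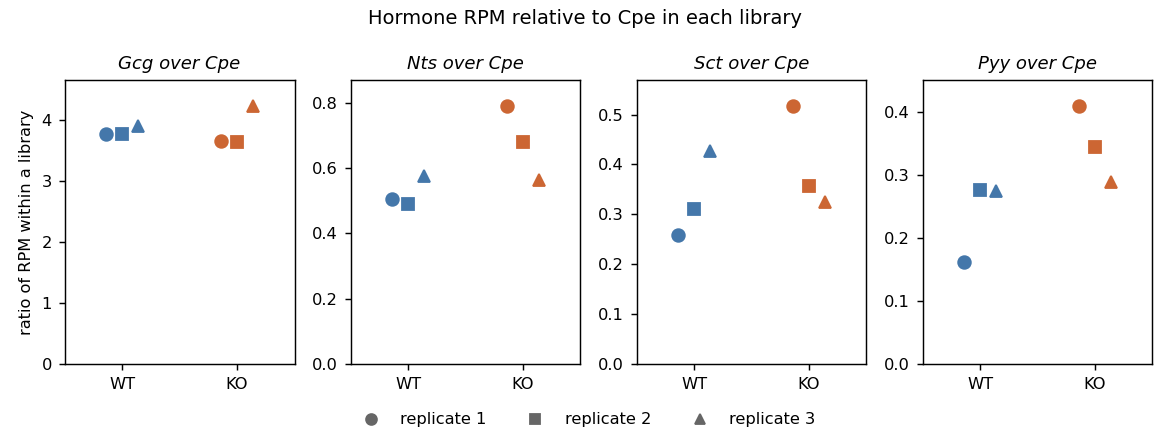
Ratio of hormone RPM to Cpe RPM within each library (linear axis from 0), for Gcg, Nts, Sct and Pyy, with marker shapes for the replicate number. Gcg over Cpe lies between 3.65 and 4.24 in all 6 libraries, and only Pyy over Cpe has no overlap between WT and KO.

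Pcsk5 and Pcsk6 encode proprotein convertases, which cut precursor proteins after basic residues and are best known for precursors outside the hormone granule, such as growth factors. Pcsk5 lies on chromosome 19 (17432832 to 17837632, minus strand) and had 335, 371 and 337 RPM in WT and 232, 252 and 290.4 RPM in KO. It fell to 74.2% of the WT mean, or -0.44 on the log2 scale (SE 0.12, limma adjusted p = 0.0133). All KO values lay below all WT values, but the call was lost once the trend with transcript length was removed (below 0 still, at -0.10).

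Pcsk6 lies on chromosome 7 (65861734 to 66050386, plus strand) and had 56.7, 62.3 and 56.6 RPM in WT and 28.5, 28.3 and 35.7 RPM in KO. It fell to 52.6% of the WT mean, or -0.93 on the log2 scale (SE 0.13, limma adjusted p = 0.00191), the lowest among the 12 genes. Pcsk6 decreased more than Pcsk5, as the ratio of Pcsk6 to Pcsk5, a comparison also chosen after the values were seen, was 0.168 or 0.169 in the WT libraries and between 0.112 and 0.123 in the KO libraries. Pcsk6 overlaps 1 annotated gene on its own strand and 1 on the other, and Cped1 and Pcsk5 overlap 2 and 1 genes on the other strand. The kit keeps the strand, but whether the counting used it is not given in the sources used here, so reads of the overlapping genes may be included.

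Sytl1 and Sytl2 encode synaptotagmin-like proteins, which link granules carrying the GTPase Rab27 to the cell membrane. Sytl1 lies on chromosome 4 (133253090 to 133263113, minus strand) and had 17.1, 22.0 and 20.2 RPM in WT and 37.4, 34.7 and 23.5 RPM in KO. KO replicate 3 was 1.07 times WT replicate 2, the closest approach of the groups among the 11 genes without overlap. In limma the change came to 0.67 on the log2 scale (SE 0.20, adjusted p = 0.0171), and this p was 0.0553 without WT replicate 1 and 0.0569 without KO replicate 2.

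Sytl2 lies on chromosome 7 (90302252 to 90410719, plus strand) and had 46.6, 40.1 and 38.4 RPM in WT and 58.8, 65.1 and 67.0 RPM in KO. Unlike the hormones, it was highest in KO replicate 3 and lowest in KO replicate 1. It rose by 0.61 on the log2 scale (SE 0.12, limma adjusted p = 0.00476). Sytl2 is also a goblet cell marker in the lists used here.

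Syt8, a member of the synaptotagmin family, lies on chromosome 7 (142434850 to 142440396, plus strand) and was low. It had 3.65, 1.92 and 1.70 RPM in WT and 7.57, 7.48 and 3.29 RPM in KO. WT replicate 1 and KO replicate 3 overlapped, with 47 reads each (exact 95% Poisson intervals of 2.68 to 4.86 and 2.42 to 4.38 RPM, for counting error only). The log2 change of 1.29 (standard error 0.41) had a limma adjusted p-value of 0.0198, and this rose to between 0.0606 and 0.0625 when WT replicate 2, WT replicate 3, KO replicate 1 or KO replicate 2 was left out.

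Gipr encodes the receptor for the incretin hormone GIP and lies on chromosome 7 (19156061 to 19166127, minus strand). It had 3.81, 2.55 and 1.37 RPM in WT and 6.92, 5.70 and 5.04 RPM in KO, from between 21 and 86 reads per library. The groups did not overlap. In limma the change came to 1.26 on the log2 scale (SE 0.35, adjusted p = 0.0133). Cped1, on chromosome 6 (21985916 to 22256404, plus strand), had 2.64, 1.60 and 2.22 RPM in WT and 4.35, 6.45 and 4.34 RPM in KO, which is a rise of 1.19 on the log2 scale (SE 0.23, limma adjusted p = 0.00489) without overlap. By the exact permutation test, two-sided, p was 0.1 for 11 of the 12 genes, the smallest that 3 against 3 libraries allow, and 0.2 for Syt8.

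To compare levels between genes, RPM was divided by the length of the longest annotated transcript in kilobases. In WT the level of Gcg was 170.1 ± 18.6 RPM per kilobase (SD, n = 3), well above Pcsk5 at 48.4 ± 2.81. Sct, Cpe, Pyy and Nts followed with means between 20.3 and 25.8 RPM per kilobase, and neighbours in this order did not differ beyond their ranges. Pcsk6 (13.3), Sytl2 (9.59) and Sytl1 (7.96) came next, the ranges of Sytl2 and Sytl1 overlapping, and Syt8, Gipr and Cped1 lay between 0.378 and 1.61 RPM per kilobase. In KO the order below Gcg (291 ± 31.6 RPM per kilobase) changed. Sct, Pyy, Nts and Cpe, with means between 39.2 and 55.2, then had higher means than Pcsk5 at 35.9 ± 4.13, although the range of Pcsk5 (32.3 to 40.4) overlapped with that of each of these 4 genes. The order depended on the length used. With the merged exons as length, Pcsk5 and Sct overlapped in WT already, at 24.1 and 24.6 RPM per kilobase, and Sytl2 (2.99) lay below Sytl1 (7.85) without overlap. In KO, Pcsk5 then ran from 16.1 to 20.1 RPM per kilobase and lay below Cpe (25.6 to 36.9), Nts, Pyy and Sct without overlap.

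Many of these genes differed between the KO libraries in the same way, and so did part of the markers of other secretory cells. KO replicate 1 was the highest KO library for 8 of the 12 genes (the 4 hormones, Cpe, Sytl1, Syt8 and Gipr), against 32.7% of the listed genes, and KO replicate 3 was the lowest for 9, against 35.6%. The ratio of KO replicate 1 to KO replicate 3 was 2.02 for Nts, 2.30 for Sct and 2.05 for Pyy, but 1.24 for Gcg. KO replicate 1 was also the highest KO library for 8 of the 11 listed Paneth cell markers, whose ratios ran from 0.998 (Nupr1) to 2.81 (Mptx1), and for 5 of the 7 listed goblet cell markers, with ratios from 0.879 (Sytl2) to 2.13 (Tff3). The median log2 value of this ratio was 0.32 over the 349 listed genes with the shortest transcripts and -0.35 over the 349 with the longest. The part of this gradient in the changes of the hormone genes was not tested. Without KO replicate 1, all 10 log2 increases remained above 0 and 9 of them passed, Syt8 being the exception, and the log2 change of Sct was 0.71 (limma adjusted p-value 0.0268) and that of Pyy 1.09 (0.0225).

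Transcript length differed between these groups of genes too. The longest transcripts of Pyy (555 bases), Sct (617), Gcg (1088) and Nts (1248) lie in the lowest 10.2% of lengths in the table, while those of Pcsk6 (4405) and Pcsk5 (7188) lie above 74.9% and 94.8% of them. Among the 349 genes with the shortest transcripts 67.6% rose in KO, compared with 41.5% of the 349 with the longest. A loess trend with transcript length was fitted for each library, relative to the WT mean, over the 1396 listed genes with a length. As the study had called all of these, the trend includes their changes, and its removal may take out part of them. With this trend removed, the log2 change of Sct was 0.42 (limma adjusted p-value 0.0668) and that of Pcsk5 was -0.10 (0.284), so that neither passed. Gcg then had a log2 change of 0.36 (limma adjusted p-value 0.0279), Pyy 0.69 (0.0324) and Nts 0.77 (0.0072), and Pcsk6 had -0.75 (0.00141). Sytl2, Gipr and Cped1, with transcripts of 4348, 3182 and 5690 bases, had larger changes under this setting (0.79, 1.31 and 1.46). Over the table, 14.8% of the genes with a length lost their call in the same way. What lies behind the trend with length was not tested.

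**Figure D3:**
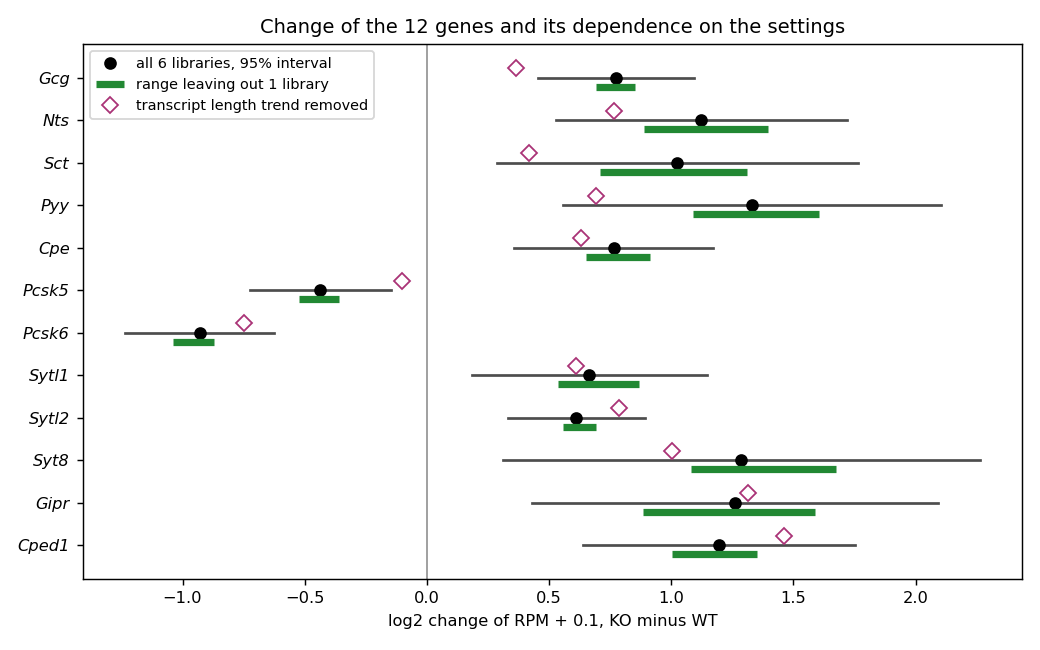
Log2 change of RPM + 0.1 (KO minus WT) of the 12 genes with all 6 libraries and the 95% interval from limma, the range of the 6 estimates that each leave out 1 library, and the estimate after removal of the length trend. Pcsk5 at -0.10 and Gcg at 0.36 after removal of the trend lie outside their 95% intervals.

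**Figure D4:**
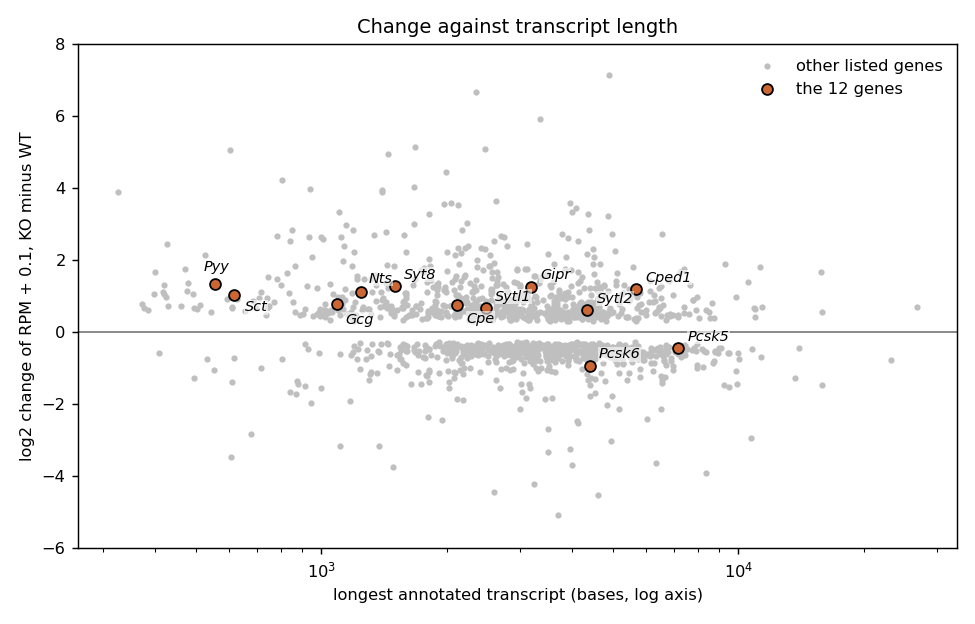
Log2 change of RPM + 0.1 (KO minus WT) against the longest annotated transcript (log axis) for 1396 listed genes, with the 12 genes marked. The 4 hormone genes lie at the short end, between 555 and 1248 bases, and Pcsk5 at the long end, at 7188 bases, and few genes lie near 0 because the table lists called genes only.

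The other genes of the pathway were taken from lists written with earlier results of these data known. Of 45 genes of hormones, prohormone processing and granule cargo, 10 were listed, with 9 higher and 1 lower, and 5 of the 9 are hormones and Cpe from above. These counts are to be read against 52.5% of the listed genes called higher and 47.4% called lower. The median log2 change was 0.90, against 0.38 over the table. Pam, the enzyme that amidates peptide ends, had 38.1, 41.6 and 40.3 RPM in WT and 53.1, 54.01 and 52.8 RPM in KO. Scgn, a calcium-binding protein of endocrine cells, rose by 0.73 on the log2 scale (limma adjusted p-value 0.00941). Aplp1, an amyloid precursor-like protein, rose by 2.32 (limma adjusted p-value 7.7e-05), from 38.2 to 190.4 RPM. Penk, the precursor of the enkephalins, was near the floor in WT with 0.311, 0.128 and 0.0653 RPM (4, 2 and 1 reads). It had 7.73, 5.22 and 10.9 RPM in KO. Fabp5, a fatty acid-binding protein, was the 1 gene that fell, by 0.81 on the log2 scale (limma adjusted p-value 0.0148).

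Of 92 vesicle trafficking and exocytosis genes outside the selection, only 7 were listed, 3 higher and 4 lower, with a median log2 change of -0.51. This split is near that of the whole table (52.5% higher and 47.4% lower). Cplx2, a complexin that binds SNARE complexes, rose by 0.65 (limma adjusted p-value 0.00888), and Rab3d, a granule GTPase, and Anxa13, an annexin, each rose by 0.30 (limma adjusted p-values of 0.0168 and 0.019). Of the 6 fits that each leave out 1 library, 2 did not pass for Rab3d and 4 for Anxa13. The rise of Anxa13 was lost once the length trend was removed (log2 change -0.07, limma adjusted p-value 0.542). Rph3al, a Rab effector of endocrine exocytosis, fell from 73.3, 85.5 and 77.3 RPM in WT to 30.5, 40.6 and 49.0 RPM in KO. Rims4, related to the active zone proteins of synapses, had 5.98, 3.19 and 4.70 RPM in WT and 0.0805, 0.755 and 1.05 RPM in KO, the lowest of these being 1 read. The Golgi SNARE Gosr2 and the carrier membrane protein Scamp5 had log2 changes of -0.52 and -0.51 (limma adjusted p-values of 0.00682 and 0.00581).

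Of 38 genes chosen for the excitability, channels, nutrient receptors and hormone receptors of enteroendocrine cells, 5 were listed, 3 higher (Gipr among them) and 2 lower. This split, too, is near that of the whole table (52.5% higher and 47.4% lower). Ffar4, a receptor for long-chain fatty acids, had 6.68, 5.94 and 6.53 RPM in WT and 11.9, 11.5 and 12.1 RPM in KO, a narrow spread in both groups. The paper describes Kirrel2 as a glycoprotein that controls insulin secretion of pancreatic beta cells. Kirrel2 rose from 0.155, 0.192 and 0.326 RPM in WT to 1.45, 2.95 and 1.47 RPM in KO. Its WT values came from between 2 and 5 reads per library. Grm4, a metabotropic glutamate receptor, fell from 76.2, 79.6 and 82.0 RPM to 3.70, 1.78 and 5.61 RPM, and Slc5a1, the glucose transporter of the brush border, fell by 0.28 on the log2 scale (limma adjusted p-value 0.0221), but did not pass in 4 of the 6 fits that each leave out 1 library, nor with the length trend removed (-0.12, limma adjusted p-value 0.197). Of 24 transcription factors of the enteroendocrine fate, Neurog3, Neurod1 and Isl1 among them, 0 were listed, and they were not analysed here.

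**Figure D5:**
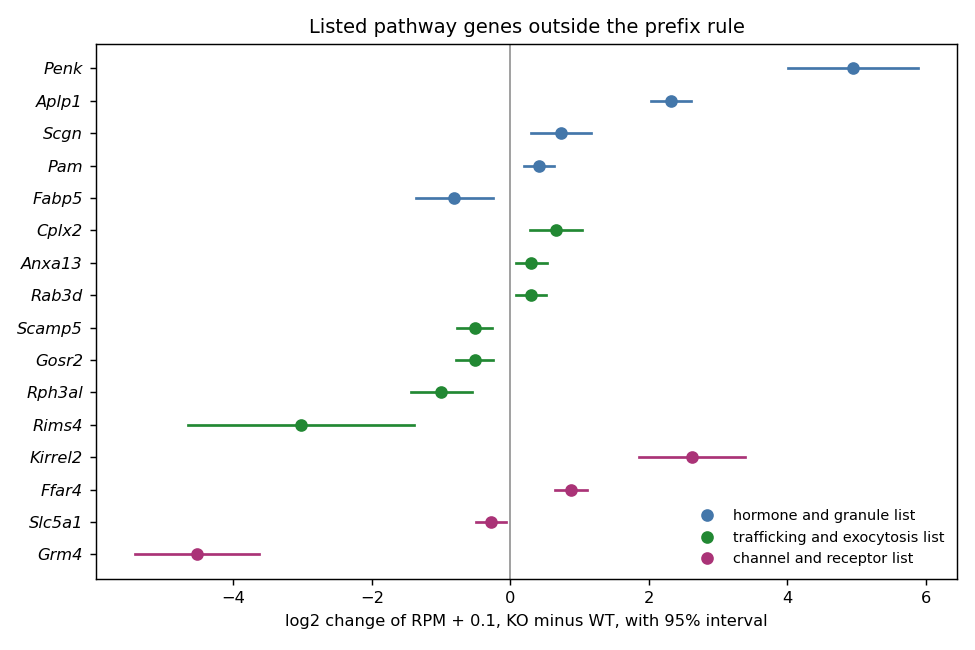
Log2 change of RPM + 0.1 (KO minus WT) with its 95% interval from limma (n = 3 per group) for the listed genes of the 3 pathway lists outside the 12 genes. The hormone and granule list has 4 genes above 0 and Fabp5 below, whereas the trafficking list has 3 above and 4 below.

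Markers of other secretory cells moved with the hormones, and their counts are to be read against the 52.5% of listed genes called higher and the 47.4% called lower. All 11 listed of 15 Paneth cell markers were higher in KO. Their summed levels lay between 9475 and 10977 RPM in the WT libraries and between 19777 and 28893 RPM in the KO libraries. The 7 listed of 16 goblet cell markers, 1 of them Sytl2 from above, were all higher too. Their sums ran from 1902 to 2139 RPM in WT and from 2965 to 5312 RPM in KO. All 9 listed of 16 enterocyte markers were lower (21709 to 24729 RPM in WT, 15254 to 16673 RPM in KO). With the length trend removed, the Paneth cell markers Defa26 and Guca2b, the goblet cell marker Klk1 and the enterocyte markers Lct and Slc5a1 no longer passed, with limma adjusted p-values of 0.969 for Defa26, 0.488 for Guca2b and 0.898 for Klk1. Guca2b and Lct also did not pass in 5 of the 6 fits that each leave out 1 library, and Mptx1, Nupr1, Klk1 and Slc5a1 did not pass in between 1 and 4 of them. The 6 listed of 22 enteroendocrine markers, 5 of them hormones and Cpe from above, summed to between 271 and 325 RPM in WT and between 441 and 628 RPM in KO. Of 12 stem cell markers 3 were listed and higher (Gkn3 not with the length trend removed), of 13 tuft cell markers 1 was listed and lower (Dclk1, limma adjusted p-value 0.0595 with the length trend removed), and of 10 immune cell markers 1 was higher and 1 lower. No listed marker was at 0 in all 6 libraries. Markers of mesenchymal, neural and endothelial cells were not analysed here, and the part of any cell type in the changes of the 12 genes was not tested.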

How the data were processed

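Poly(A)-selected mRNA of 6 organoid libraries (3 WT, 3 KO, grouped by sample title) was analysed. The authors trimmed reads with Trim Galore (0.4.2), mapped them to GRCm38 with HISAT2 (2.0.3), counted uniquely mapped reads over exons of merged transcripts in SeqMonk and kept genes that passed DESeq2 on raw counts. The values deposited by the authors are RPM, scaled to the depth of each library. The deposited table also holds the authors' corrected p-values (FDR), which were not used. Reads per gene were inferred from the step of the values (100% of values under 2000 reads were whole within 0.02 reads), which gave 1.24e+07 to 1.57e+07 reads per library. No count test was run.

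Genes were tested with limma (3.58.1, R 4.3.3) on log2(RPM + 0.1), two-sided, without covariates, with Benjamini-Hochberg adjustment over 1420 genes and a threshold of 0.05. The log2 scale with this pseudocount understates the change of low genes. The code was tested on simulated data. Exact permutation tests used scipy (1.17.1). Coordinates are those of the table, which for 11 of the 12 genes equal GENCODE M21 and differ for Pcsk5. Transcript lengths are from GENCODE M21 (1396 genes matched) and start sites from RefSeq. Replicate pairs within a group all differed by more than sampling noise.

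The 12 genes and the lists were chosen with earlier results of these data known. Genes were named as members of the selection, as Smarcad1, or as listed genes of the pathway and marker lists. Alternatives were a replicate block, a pseudocount of 1, keeping genes with a mean of at least 18.5 RPM (percentile 25), centring of libraries, an intensity trend, stricter thresholds, removal of the length trend, merged exon length and leaving out each library.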

Additional observations from a re-analysis of the deposited data

How the results depend on the processing

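Across the alternatives run for single genes of the selection, 132 of 141 values kept their direction and their side of the threshold, 9 lost the threshold (Sct, Pcsk5, Sytl1 and Syt8) and 0 reversed. Of the 12 genes called, 7 remained at an adjusted p-value under 0.01 (6 higher, 1 lower) and 6 with a log2 change of at least 1 (6 higher, 0 lower, Pcsk6 being at -0.93). With the length trend removed 1 of the 2 falls was left, and the cause was not tested. The channel and receptor list had 5 calls, 2 with low genes left out, since fewer genes are then tested and 3 at the stricter threshold. Centring shifted log2 changes by -0.09 and changed no direction among the 12 genes. Adding a replicate block left 12 genes called, while the trafficking list had 6 calls, against 7, and the channel and receptor list 4, against 5. Across genes, libraries sharing a number deviated together with r of -0.08, 0.09 and 0.06, so the numbers are not treated as pairs. Depth limits Syt8, Gipr and Cped1, each with at most 109 reads in a library.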

Other observations

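Of the 12 genes, 5 lie on chromosome 7 (Gipr, Pcsk6, Sytl2, Sct and Syt8), which holds 103 of the 1420 listed genes (7.25%). Of these, 4 were higher in KO and Pcsk6 was lower. Sct and Syt8 are 1.16 Mb apart, and the others are farther from each other. The nearest listed gene to Sct, Lmntd2, is 64250 bases away, and that to Cpe, Msmo1, is 25085 bases away. No gene of the selection overlaps another listed gene.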
